A study of Homo sapiens with 9 samples.

Results

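The 42 genes described here copy DNA or prepare the cell to copy it. They were picked by symbol from a list of replication genes, a rule that uses no measured value. The list itself was chosen with earlier results of these data known, so it is not blind to them. All 42 were among the 26929 genes of the deposited table. By role, 14 belong to origin licensing and the replicative helicase, 14 to the polymerases and the replication fork, 6 to nucleotide supply and uracil removal, 4 to chromatin assembly and histone supply, and 4 regulate entry into or progress through S phase. RNA came from MV4-11 cells, a human line established from acute myeloid leukaemia, which were kept for 24 h in JPX-0700, in JPX-0750 or in the solvent DMSO. The series title presents both compounds as agents that degrade STAT3 and STAT5, which are transcription factors; their doses are not stated in the labels, and all 3 groups grew in the same serum-supplemented medium. Each group had 3 libraries made with QuantSeq, an assay that reads the 3′ ends of polyadenylated RNA. Nothing in the labels says that the 3 libraries of a group came from separate cultures, so p-values measure only the spread between these libraries, which may be technical. A single cell line was used.

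Replication starts at origins, where the origin recognition complex, CDC6 and CDT1 load the ring-shaped MCM2 to MCM7 helicase before S phase. The kinase CDC7, MCM10, CDC45 and the GINS proteins then turn the loaded ring into a moving helicase, behind which DNA polymerases alpha, delta and epsilon copy the strands. Many of these genes are transcribed in waves by E2F factors as cells leave G1, so their RNA is a common measure of proliferation in leukaemia cells.

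RefSeq promoters (GRCh38.p14, from 250 bases before to 50 bases after the annotated start) were matched for 38 of the 42 genes. They were searched on both strands for 4 spellings of the E2F site, TTTCCCGC, TTTCGCGC, TTTGCCGC and TTTGGCGC, where matches on opposite strands may overlap. At least 1 of these words stood in 21 of the 38 promoters (55.3%), against 3.33% of all 27305 promoters in the table and 5.69% of the 8942 promoters of genes that were tested for expression. The 5 promoters below are printed because 4 belong to the genes that fell with JPX-0700 and MCM6 shows the densest E2F words of the set. Capitals mark the E2F words.

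MCM2, chr3:127598161-127598460, plus strand: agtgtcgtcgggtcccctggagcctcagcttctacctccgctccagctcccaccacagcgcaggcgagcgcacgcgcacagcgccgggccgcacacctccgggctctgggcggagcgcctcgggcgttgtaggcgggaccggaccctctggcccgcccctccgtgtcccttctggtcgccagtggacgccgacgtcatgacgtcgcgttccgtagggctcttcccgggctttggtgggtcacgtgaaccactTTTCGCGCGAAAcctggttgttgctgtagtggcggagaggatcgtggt

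MCM6, chr2:135876394-135876693, minus strand: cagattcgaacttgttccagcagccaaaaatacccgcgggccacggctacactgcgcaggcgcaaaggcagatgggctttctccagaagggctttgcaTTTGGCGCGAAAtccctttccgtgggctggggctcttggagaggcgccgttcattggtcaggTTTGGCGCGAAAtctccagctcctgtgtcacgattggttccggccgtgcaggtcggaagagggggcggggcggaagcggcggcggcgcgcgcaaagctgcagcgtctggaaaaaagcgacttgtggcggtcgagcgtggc

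FEN1, chr11:61792661-61792960, plus strand: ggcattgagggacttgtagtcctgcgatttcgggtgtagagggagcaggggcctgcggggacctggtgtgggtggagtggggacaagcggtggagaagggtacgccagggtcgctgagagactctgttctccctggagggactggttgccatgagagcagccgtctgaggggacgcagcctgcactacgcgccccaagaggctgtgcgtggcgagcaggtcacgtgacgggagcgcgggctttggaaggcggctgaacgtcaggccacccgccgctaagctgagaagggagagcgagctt

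RRM1, chr11:4094435-4094734, plus strand: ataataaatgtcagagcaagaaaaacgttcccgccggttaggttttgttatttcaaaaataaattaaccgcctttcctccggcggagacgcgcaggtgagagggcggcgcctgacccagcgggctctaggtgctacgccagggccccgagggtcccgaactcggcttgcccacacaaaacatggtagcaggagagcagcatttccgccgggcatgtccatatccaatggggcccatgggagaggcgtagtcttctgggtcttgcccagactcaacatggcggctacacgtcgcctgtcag

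RRM2, chr2:10122489-10122788, plus strand: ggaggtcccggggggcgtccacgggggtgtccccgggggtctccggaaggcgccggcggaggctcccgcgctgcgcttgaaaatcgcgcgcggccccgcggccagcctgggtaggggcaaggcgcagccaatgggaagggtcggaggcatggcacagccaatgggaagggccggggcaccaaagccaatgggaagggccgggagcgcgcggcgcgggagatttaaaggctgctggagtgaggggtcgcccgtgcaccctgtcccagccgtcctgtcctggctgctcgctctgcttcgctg

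The MCM2 promoter held its 2 words in one run of overlapping letters, beginning 2 and 6 bases after the start. In MCM6 the run appeared at 2 places, with words beginning at −152, −148, −90 and −86. The windows of FEN1, RRM1 and RRM2 held none of the 4 spellings, which says only that these letters are not in these windows. By role, the words stood in 9 of 12 licensing and helicase promoters, 7 of 13 polymerase and fork promoters, 1 of 6 nucleotide promoters (TYMS), 1 of 4 chromatin promoters (UHRF1) and all 3 matched promoters of the regulators. CCAAT, searched on both strands, was in 55.3% of the 38 promoters against 36.8% of the promoters of tested genes. The GC box GGGCGG was in 68.4% against 69.8%.

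Reads on genes per library were 739418 to 1852375 with JPX-0700, 726043 to 1941860 with JPX-0750 and 2701317 to 6305586 with DMSO. In each group 1 library detected fewer genes than its partners: replicate 3 with JPX-0700 (10027 genes), replicate 3 with JPX-0750 (10407) and replicate 1 with DMSO (9816), against 13068 to 14616 in the other 6. Small structured RNAs held 8.15 to 10.1% of reads with JPX-0700, 11.1 to 13.5% with JPX-0750 and 0.0390 to 0.235% with DMSO, and protein-coding genes held 76.9 to 79.3%, 73.1 to 77.0% and 94.1 to 94.6% in the same order of groups. Markers of myeloid leukaemia cells (12 genes) summed to 2337 to 4038 normalised counts with JPX-0700, 1958 to 3837 with JPX-0750 and 5249 to 8682 with DMSO. Most of that sum was LYZ, with 1152 to 2659, 801 to 2742 and 4055 to 7377 normalised counts in the same order of groups. The markers did not all move with it: MEIS1 had 172 to 730.5 with JPX-0700 and 297 to 503 with JPX-0750, against 120.4 to 200.2 with DMSO. CD14 was at 0 in every library, MPO and AZU1 were at 0 in every JPX-0700 library, and HOXA9 was at 0 in every JPX-0750 library. These genes were also low with DMSO, where MPO had 0, 14.6 and 12.4 normalised counts, AZU1 0, 0 and 1.08, and HOXA9 0, 0 and 1.62. HOXA9 had 4.61, 3.73 and 0 with JPX-0700. The summed markers of T and NK cells, B and plasma cells, erythroid cells and megakaryocytes, and epithelial cells and fibroblasts reached at most 130 in any library. The part of these library differences in the results below was not tested.

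Replication genes took a smaller share of the reads in every treated library than in every DMSO library. The 42 genes together held 0.218, 0.250 and 0.189% of reads in the JPX-0700 libraries, 0.192, 0.234 and 0.242% in the JPX-0750 libraries, and 0.601, 0.556 and 0.623% in the DMSO libraries. The means were 0.219 ± 0.0305% with JPX-0700, 0.223 ± 0.0271% with JPX-0750 and 0.594 ± 0.0341% with DMSO (SD, n = 3 each). No treated library came near the DMSO range, and the compounds overlapped each other. A share of reads also falls when other RNA takes more of a library. Small structured RNAs held more of the reads in every treated library than in every DMSO library. In bulk RNA such as this, that shift, fewer cells in S phase and less RNA per cell cannot be told apart.

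**Figure D1:**
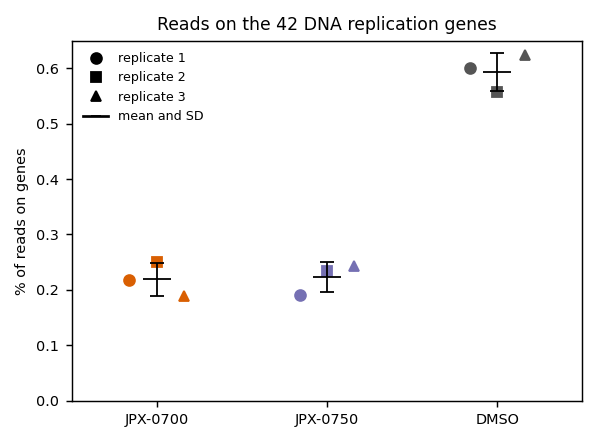
Share of all reads on genes, in percent, that fell on the 42 DNA replication genes. Points are single libraries with the marker shape giving the replicate number, and bars give the mean and SD of 3 libraries. All 6 treated libraries lie between 0.189 and 0.250%, and the 3 DMSO libraries between 0.556 and 0.623%.

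With JPX-0700, 4 of the 42 genes fell and 0 rose. They were MCM2, RRM1, RRM2 and FEN1, a helicase subunit, both main subunits of ribonucleotide reductase and the flap endonuclease of the lagging strand. These calls come from limma on log2(normalised count + 1), fitted to 12301 genes with a mean of at least 5 normalised counts, at a Benjamini-Hochberg adjusted p under 0.05. All 42 genes passed that filter, TYMS through its treated libraries. Among all genes tested 0.496% fell and 5.28% rose. By sign alone, 37 of the 42 had a log2 fold change below 0, against 46.5% of all genes tested, and the median was −0.97 against 0.14 for all genes tested. In 14 of the 42 all JPX-0700 libraries lay under all DMSO libraries, which held for 10.3% of all genes tested. In 0 of the 42 did they lie above, against 16.5%. An unadjusted p under 0.05 was reached by 11 of the 42, against 19.6% of all genes tested, and voom, the same linear model with weights from the recovered reads, called 1.1% of all genes tested as lower and 6.8% as higher. The 4 calls became 1 without replicate 1 of DMSO, 2 without replicate 1 of JPX-0700 and 2 without replicate 2 of DMSO.

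With JPX-0750, 0 of the 42 genes fell and 0 rose by the same limma test, where 0.0732% of all genes tested fell and 3.9% rose. Their log2 fold changes still lay mostly on the lower side, with 35 of the 42 below 0 against 42.5% of all genes tested, and a median of −0.81 against 0.26. In 14 of the 42 all JPX-0750 libraries lay under all DMSO libraries (9.18% of all genes tested), and in 1, POLE, all lay above (19.7%). An unadjusted p under 0.05 was reached by 9 of the 42, against 14.2% of all genes tested. The smallest adjusted p were 0.0570 for MCM4 and 0.0689 for RRM1, and voom called these 2 genes as lower, where it called 0.48% of all genes tested as lower and 5.97% as higher. Leaving out replicate 1 of JPX-0700 gave 1 call, replicate 3 of JPX-0700 gave 4 and replicate 3 of JPX-0750 gave 1.

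Both comparisons use the same DMSO libraries, so their values are set side by side here and not counted as separate evidence. Per library, the median of the 42 genes against their DMSO mean was −0.76, −0.76 and −1.66 on the log2 scale with JPX-0700, −0.73, −0.78 and −0.54 with JPX-0750, and −0.03, 0.20 and −0.02 with DMSO. The median of all genes tested was 0.51, 0.51 and −0.58 in the JPX-0700 libraries, 0.63, 0.47 and −0.05 in the JPX-0750 libraries and −0.09, 0.03 and 0.08 in the DMSO libraries. Replicate 3 of JPX-0700 therefore lay lowest for the replication genes and for genes at large. It also had 19 of the 42 genes under 10 reads, against 3 to 8 in the other treated libraries and 0 to 2 in the DMSO libraries.

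Without the 3 libraries that detected fewest genes, a setting chosen after seeing the data that leaves 2 libraries a group, 12 of the 42 genes fell and 2 rose with JPX-0700, and 11 fell and 2 rose with JPX-0750. In that fit 5.32% of all genes tested fell and 19.8% rose with JPX-0700, and 4.62% fell and 20.0% rose with JPX-0750. The 2 past the threshold upwards were TYMS and POLA1 with both compounds. TYMS averaged under the filter's 5 normalised counts with DMSO (2.18) and was tested only because of its treated libraries, so its call is not read as a result. Total-sum scaling in place of the deposited factors moved the median of all genes tested by more than 0.1, to −0.52 with JPX-0700 and −0.25 with JPX-0750. The replication genes' median lay 1.11 below that of all genes tested with the deposited factors and 1.18 below it with total-sum scaling for JPX-0700, and 1.07 and 1.09 below it for JPX-0750.

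**Figure D2:**
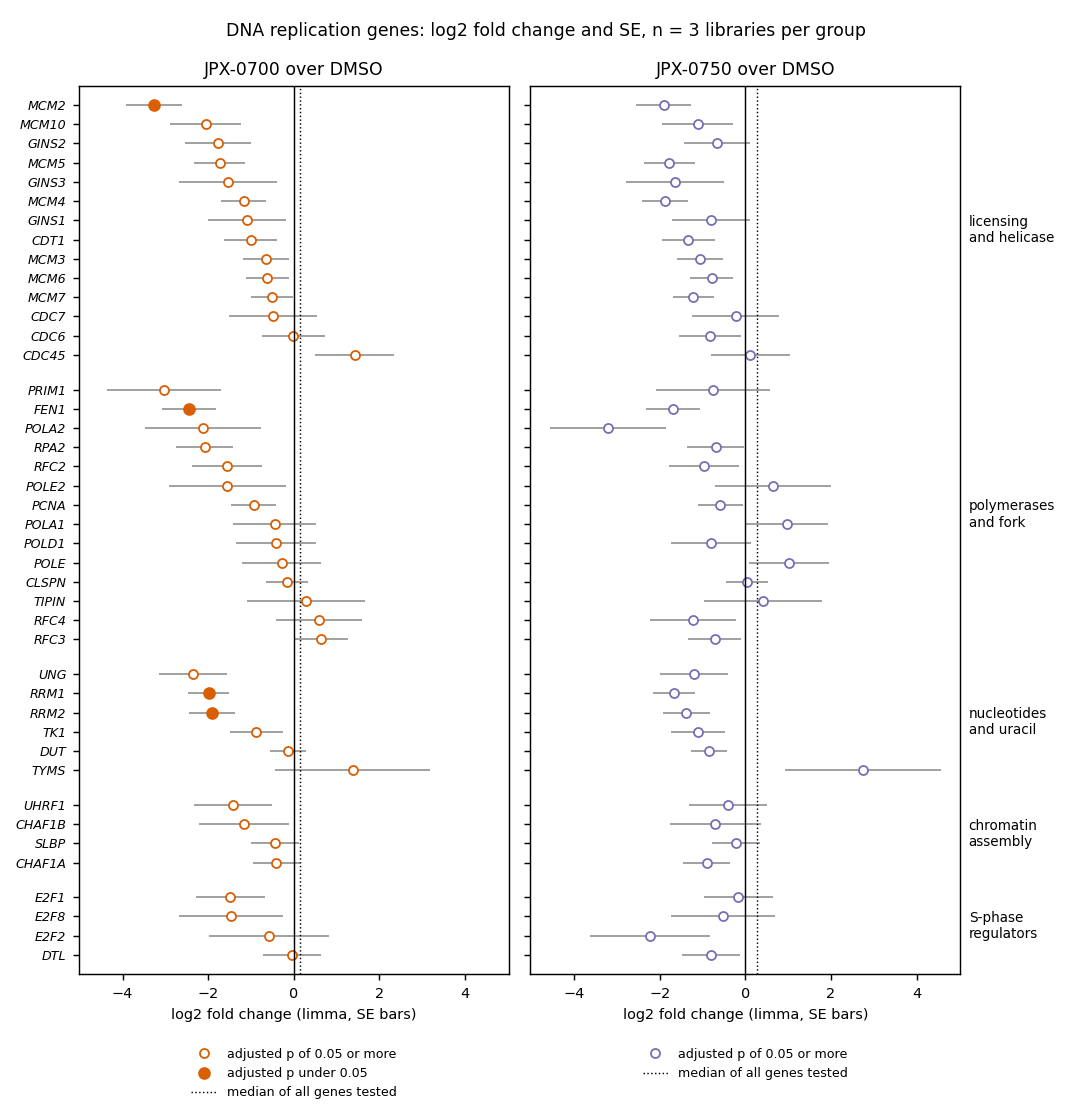
Log2 fold change of each of the 42 genes over DMSO on the log2(normalised count + 1) scale, JPX-0700 left and JPX-0750 right, with SE bars from limma (n = 3 libraries per group). Genes run down the page by role, filled points have an adjusted p under 0.05 and the dotted line is the median of all genes tested. Only MCM2, FEN1, RRM1 and RRM2 are filled, all under JPX-0700, and 37 points on the left and 35 on the right lie below 0.

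Among the 14 licensing and helicase genes, MCM2 fell with JPX-0700 and the others did not pass the test with either compound. The log2 fold changes of 13 of the 14 were below 0 with each compound, with medians of −1.05 for JPX-0700 and −1.09 for JPX-0750. MCM2 is a subunit of the helicase ring. It stands at chr3:127598411-127622436 on the plus strand (GRCh38.p14), downstream of the promoter printed above. MCM2 had 59.9, 44.7 and 47.2 normalised counts with JPX-0700, from 13, 12 and 17 reads. It had 61.6, 136 and 262 with JPX-0750, from 18, 30 and 157 reads, and 618, 569 and 341 with DMSO, from 688, 1484 and 633 reads. All 6 treated libraries were below all DMSO libraries, and the JPX-0750 libraries were all above the JPX-0700 ones. The log2 fold change was −3.27 ± 0.65 (SE, adjusted p = 0.00405) with JPX-0700, 9.65-fold lower on that scale. With JPX-0750 it was −1.91 ± 0.65 (adjusted p = 0.132). The fall with JPX-0700 passed the test in all 20 alternative settings, with log2 fold changes of −3.99 to −3.06 and adjusted p of 0.000804 to 0.0396.

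MCM4, another ring subunit, had the most reads of the 42 genes. It had 300, 533 and 1309 normalised counts with JPX-0700, 277, 573 and 302 with JPX-0750, and 1278, 1077 and 1759 with DMSO. All JPX-0750 libraries were under all DMSO libraries, while replicate 3 of JPX-0700 reached into the DMSO range. The log2 fold changes were −1.18 ± 0.53 (adjusted p = 0.233) with JPX-0700 and −1.88 ± 0.53 (adjusted p = 0.0570) with JPX-0750. With JPX-0750 MCM4 passed the test in 11 of 20 alternative settings, whose adjusted p ran from 0.00731 to 0.255.

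MCM5 had 69.1, 142 and 217 normalised counts with JPX-0700, 99.3, 127 and 155 with JPX-0750, and 279, 609 and 468 with DMSO. Each treated library was below each DMSO library. Its log2 fold changes were −1.73 ± 0.60 (adjusted p = 0.108) with JPX-0700 and −1.77 ± 0.60 (adjusted p = 0.131) with JPX-0750. MCM7 had 447, 447 and 756 normalised counts with JPX-0700, 305, 318 and 355 with JPX-0750, and 425, 1214 and 839 with DMSO. The JPX-0750 libraries were below all others, and the JPX-0700 libraries lay inside the DMSO range. MCM3 had 244, 402 and 1209 normalised counts with JPX-0700, 315, 327 and 501 with JPX-0750, and 789, 844 and 705 with DMSO. In MCM3, as in MCM4, replicate 3 of JPX-0700 was the highest library of its group. MCM6, whose promoter carries 4 E2F words, had 286, 242 and 445 normalised counts with JPX-0700, 212, 246 and 421 with JPX-0750, and 418, 410 and 655 with DMSO, and its groups overlapped.

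Reads on MCM2 relative to those on MCM3 to MCM7 varied between libraries, also among the DMSO libraries. The ratio of reads on MCM2 to the summed reads on MCM3 to MCM7 was 0.0445, 0.0253 and 0.0120 with JPX-0700, 0.0510, 0.0857 and 0.151 with JPX-0750, and 0.194, 0.137 and 0.0770 with DMSO. The JPX-0700 libraries were below all others, and the JPX-0750 libraries overlapped those with DMSO. This ratio needs no scaling between libraries. It was picked after the values were seen, around the called gene MCM2, so its p-values are not separate evidence. On the log2 scale the group means differed by −2.41 for JPX-0700 minus DMSO, by −0.54 for JPX-0750 minus DMSO and by 1.87 for JPX-0750 minus JPX-0700. Two-sided exact permutation tests over libraries gave p = 0.1, 0.5 and 0.1, where 0.1 is the smallest that 3 against 3 libraries allow, or 0.15, 0.5 and 0.15 adjusted over these 3 comparisons.

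The loading and activation factors were measured less deeply. MCM10, which helps start the helicase, had 111, 145 and 11.1 normalised counts with JPX-0700, 120, 123 and 93.3 with JPX-0750, and 273, 167 and 310 with DMSO. All treated libraries lay below all DMSO libraries, and replicate 3 of JPX-0700, at 4 reads, was far below the rest. The log2 fold changes of MCM10 were −2.06 ± 0.83 (adjusted p = 0.175) with JPX-0700 and −1.11 ± 0.83 (adjusted p = 0.575) with JPX-0750. The GINS proteins are part of the active helicase, and GINS1, GINS2 and GINS3 had log2 fold changes of −1.09, −1.78 and −1.53 with JPX-0700. Their values with JPX-0750 were −0.80, −0.67 and −1.64. The smallest adjusted p among these was 0.208. CDT1, a loader of the ring, had log2 fold changes of −1.003 with JPX-0700 and −1.34 with JPX-0750, and all its JPX-0750 libraries lay under all DMSO libraries.

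For CDC6, the other loader, and CDC7, the kinase that fires origins, the groups overlapped. CDC6 had log2 fold changes of −0.01 ± 0.73 with JPX-0700 and −0.83 ± 0.73 with JPX-0750, and CDC7 had −0.48 ± 1.02 and −0.23 ± 1.02 for the same compounds. CDC45, a helicase cofactor, was the single gene of the class with values above 0, at 1.42 ± 0.93 with JPX-0700 and 0.12 ± 0.93 with JPX-0750. It had 111, 67.1 and 436 normalised counts with JPX-0700, 44.5, 72.8 and 65.0 with JPX-0750, and 14.4, 137 and 80.8 with DMSO. The groups overlapped, and the high JPX-0700 value and the low DMSO value both came from libraries with few genes detected.

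**Figure D3:**
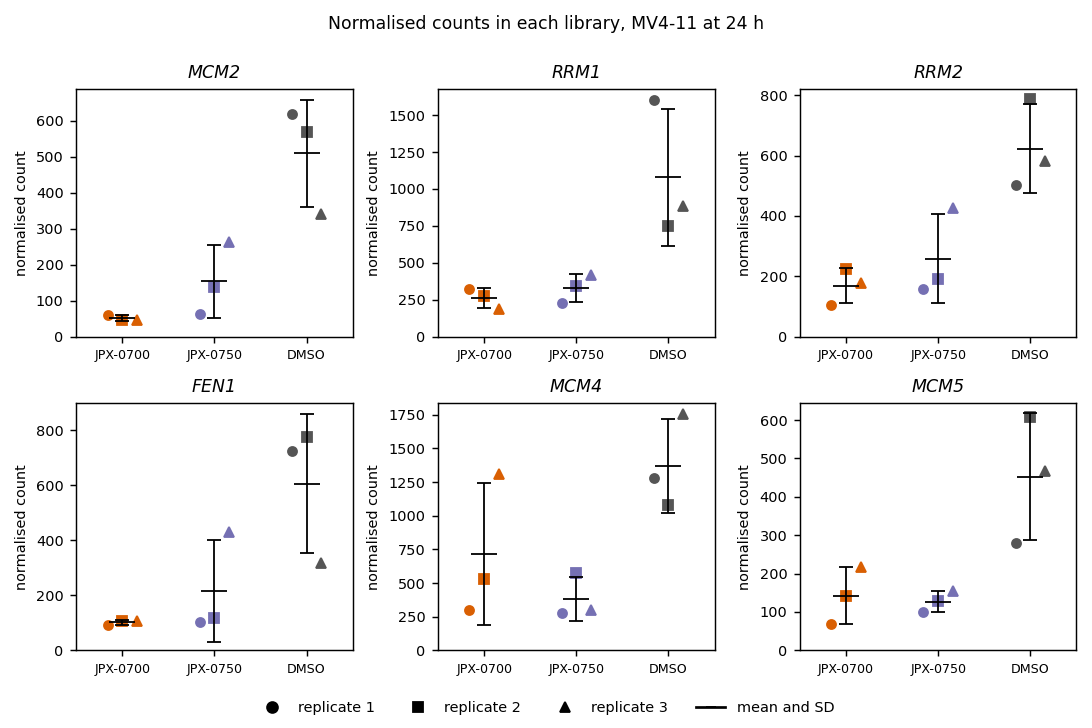
Normalised counts of MCM2, RRM1, RRM2, FEN1, MCM4 and MCM5 in each library, one panel per gene. Points are libraries with the marker shape giving the replicate number, and bars give the mean and SD of 3 libraries. The JPX-0700 libraries are below the DMSO libraries in every panel but MCM4, where replicate 3 of JPX-0700 has 1309 normalised counts, and in FEN1 replicate 3 of JPX-0750 has 431, above the lowest DMSO library at 316.

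Among the 14 polymerase and fork genes, FEN1 fell with JPX-0700 and no other gene passed the test with either compound. The class median was −0.69 with JPX-0700 and −0.71 with JPX-0750, and 11 of the 14 log2 fold changes were below 0 with JPX-0700 and 9 with JPX-0750. FEN1 cuts the flaps that form at the ends of lagging-strand fragments. It lies at chr11:61792911-61797238 on the plus strand. FEN1 had 92.2, 108 and 108 normalised counts with JPX-0700, 103, 118 and 431 with JPX-0750, and 725, 777 and 316 with DMSO. The JPX-0700 libraries, with 20, 29 and 39 reads, were close together and all below DMSO, whereas replicate 3 of JPX-0750, with 259 reads, was above the lowest DMSO library. The log2 fold change was −2.44 ± 0.63 (adjusted p = 0.0262) with JPX-0700, 5.44-fold lower, and −1.69 ± 0.63 (adjusted p = 0.184) with JPX-0750. The JPX-0700 call was lost without replicate 1 of JPX-0700 (adjusted p = 0.0692), replicate 1 of DMSO (0.149) or replicate 2 of DMSO (0.161), within a range of 0.00419 to 0.161 over 20 alternative settings. Exons of FEN1 overlap those of FADS2 on the same strand and TMEM258 on the opposite one. These overlaps lie outside the last 300 bases of the annotated span of FEN1, but where its 3′ reads fall was not measured. No source used here states the counted strand, so any reads in the overlaps may be shared.

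RPA2 is a subunit of the protein that coats single-stranded DNA. It had 69.1, 112 and 36.1 normalised counts with JPX-0700, 144, 105 and 347 with JPX-0750, and 244, 406 and 223 with DMSO. All JPX-0700 libraries were below all DMSO libraries, and replicate 3 of JPX-0750 was not. The log2 fold changes were −2.08 ± 0.67 (adjusted p = 0.0805) with JPX-0700 and −0.69 ± 0.67 (adjusted p = 0.678) with JPX-0750. POLA2, a subunit of DNA polymerase alpha, had 23.0, 14.9 and 22.2 normalised counts with JPX-0700, 27.4, 31.8 and 0 with JPX-0750, and 58.4, 130 and 94.2 with DMSO. Every treated library was below every DMSO library, from at most 8 reads each, and the log2 fold changes were −2.13 ± 1.35 (adjusted p = 0.397) with JPX-0700 and −3.21 ± 1.35 (adjusted p = 0.267) with JPX-0750. The 0 in replicate 3 of JPX-0750 allows up to 5.00 normalised counts, the worth of 3 reads in that library, for counting error only.

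PRIM1, the catalytic subunit of primase, had 143, 101 and 0 normalised counts with JPX-0700, 161, 141 and 71.6 with JPX-0750, and 267, 122 and 245 with DMSO. Replicates 1 and 2 of JPX-0700 lay around the lowest DMSO library, and the 0 in replicate 3 allows up to 8.34 normalised counts. The log2 fold change of −3.04 ± 1.33 (adjusted p = 0.214) with JPX-0700 became −0.73 without that library. With JPX-0750 it was −0.76 ± 1.33. The last 300 bases of PRIM1 also overlap NACA on the same strand, which had 21212 reads over the 9 libraries against 1249 for PRIM1.

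PCNA, the sliding clamp, had 539, 280 and 142 normalised counts with JPX-0700, 397, 305 and 362 with JPX-0750, and 516, 635 and 459 with DMSO. All JPX-0750 libraries were below DMSO, and replicate 1 of JPX-0700 was inside the DMSO range. Of the clamp-loader subunits, RFC2 had log2 fold changes of −1.56 ± 0.83 with JPX-0700 and −0.97 ± 0.83 with JPX-0750, with all treated libraries below DMSO. RFC3 had 0.64 ± 0.62 with JPX-0700 and −0.72 ± 0.62 with JPX-0750, and RFC4 had 0.59 and −1.23 for the same compounds, each with an SE of 1.0. The smallest adjusted p among these 4 genes was 0.312.

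None of the catalytic polymerase subunits passed the test. POLA1, of DNA polymerase alpha, had 535, 887 and 19.5 normalised counts with JPX-0700, 709, 655 and 398 with JPX-0750, and 432, 140 and 405 with DMSO. Replicate 3 of JPX-0700, at 7 reads, was far below its partners, which lay above all DMSO libraries. The log2 fold changes were −0.45 ± 0.97 with JPX-0700 and 0.97 ± 0.97 with JPX-0750. POLE, the leading-strand polymerase, had 147, 160 and 11.1 normalised counts with JPX-0700, 175, 164 and 148 with JPX-0750, and 33.2, 135 and 113 with DMSO. All JPX-0750 libraries were above all DMSO libraries, and the JPX-0700 libraries overlapped them. The log2 fold changes were −0.29 ± 0.93 (adjusted p = 0.891) with JPX-0700 and 1.01 ± 0.93 (adjusted p = 0.661) with JPX-0750. POLE2, its second subunit, had log2 fold changes of −1.56 ± 1.36 with JPX-0700, where replicate 3 had no read, and 0.64 ± 1.36 with JPX-0750. POLD1, the catalytic subunit of the lagging-strand polymerase, had −0.41 ± 0.94 with JPX-0700 and −0.81 ± 0.94 with JPX-0750.

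CLSPN, a checkpoint mediator at the fork, was among the most deeply read of the 42 genes. It had 516, 626 and 397 normalised counts with JPX-0700, 548, 600 and 588 with JPX-0750, and 967, 285 and 654 with DMSO. The treated libraries all lay inside the spread of the DMSO libraries. Its log2 fold changes were −0.16 ± 0.49 with JPX-0700 and 0.03 ± 0.49 with JPX-0750, a sign that turned under total-sum, TMM and quantile scaling and with voom. TIPIN, which stabilises stalled forks, had 0.28 ± 1.38 and 0.42 ± 1.38 for the same compounds, with 2 reads in replicate 1 of DMSO.

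In the class of nucleotide supply and uracil removal, both RRM1 and RRM2 fell with JPX-0700. The medians of the 6 genes were −1.40 with JPX-0700 and −1.16 with JPX-0750, and 5 of the 6 log2 fold changes were below 0 with each compound. RRM1 encodes the large subunit of ribonucleotide reductase, which makes deoxyribonucleotides, and lies at chr11:4094685-4138932 on the plus strand. RRM1 had 323, 276 and 186 normalised counts with JPX-0700, 229, 341 and 418 with JPX-0750, and 1606, 747 and 881 with DMSO. All treated libraries were below all DMSO libraries. The log2 fold change was −1.99 ± 0.49 (adjusted p = 0.0192) with JPX-0700, 3.98-fold lower, and −1.67 ± 0.49 (adjusted p = 0.0689) with JPX-0750. The JPX-0700 call was lost without replicate 1 of DMSO (adjusted p = 0.155) and when only these 2 groups were fitted (0.0557), within a range of 0.00462 to 0.155 over 20 alternative settings. With JPX-0750 RRM1 passed in 8 of the 20, over a range of 0.0151 to 0.388.

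RRM2 encodes the small subunit of the same enzyme and lies at chr2:10122568-10211010 on the plus strand. This span begins inside the promoter window printed above, upstream of the start on which that window was set. The window and the span therefore use different annotated starts. RRM2 had 106, 224 and 178 normalised counts with JPX-0700, 157, 191 and 426 with JPX-0750, and 502, 787 and 581 with DMSO. Again every treated library was below every DMSO library, with replicate 3 of JPX-0750 nearest to them. The log2 fold change was −1.92 ± 0.55 (adjusted p = 0.0469) with JPX-0700, 3.77-fold lower, and −1.38 ± 0.55 (adjusted p = 0.225) with JPX-0750. This call was near the threshold: it held in 11 of 20 alternative settings, over adjusted p of 0.00479 to 0.229. It was lost without replicate 1 of JPX-0700 (0.137), replicate 1 (0.0601) or 2 (0.0735) of JPX-0750, or replicate 1 (0.114), 2 (0.229) or 3 (0.114) of DMSO. With no filter (0.0740), only these 2 groups fitted (0.0726) or a replicate block (0.0514) it was lost as well.

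UNG, which removes uracil from DNA, had 32.3, 116 and 22.2 normalised counts with JPX-0700, 41.1, 123 and 193 with JPX-0750, and 224, 192 and 281 with DMSO. All JPX-0700 libraries were below all DMSO libraries, and replicate 3 of JPX-0750 just reached the DMSO range. Its log2 fold changes were −2.36 ± 0.80 (adjusted p = 0.0972) with JPX-0700 and −1.20 ± 0.80 (adjusted p = 0.524) with JPX-0750. DUT, which keeps dUTP out of DNA, had 972, 704 and 923 normalised counts with JPX-0700, 630, 541 and 418 with JPX-0750, and 1173, 692 and 1048 with DMSO. The JPX-0700 libraries lay within the DMSO range and the JPX-0750 libraries below both, with log2 fold changes of −0.14 ± 0.42 with JPX-0700 and −0.86 ± 0.42 (adjusted p = 0.376) with JPX-0750. TK1, the thymidine salvage kinase, had −0.88 ± 0.62 with JPX-0700 and −1.11 ± 0.62 with JPX-0750.

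TYMS, which makes thymidylate, was barely measured. It had 4, 4 and 0 reads with JPX-0700, 26, 13 and 0 with JPX-0750, and 0, 10 and 5 with DMSO, although the DMSO libraries were the deepest. Its groups overlapped, and its log2 fold changes were 1.37 ± 1.81 with JPX-0700 and 2.75 ± 1.81 (adjusted p = 0.522) with JPX-0750. The last 300 bases of TYMS overlap ENOSF1 on the opposite strand, which had 1185 reads in the 9 libraries, so the few reads given to TYMS may be shared with it.

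The 4 genes of chromatin assembly and histone supply did not pass the test, although all 4 log2 fold changes were below 0 with each compound, with medians of −0.80 for JPX-0700 and −0.55 for JPX-0750. UHRF1, which recognises freshly copied methylated DNA, had 50.7, 82.0 and 11.1 normalised counts with JPX-0700, 82.2, 68.2 and 73.3 with JPX-0750, and 161, 145 and 40.9 with DMSO. Replicate 3 of DMSO lay below most treated libraries, so the groups overlapped. CHAF1A and CHAF1B are subunits of the chromatin assembly factor CAF-1. CHAF1A had 207, 581 and 381 normalised counts with JPX-0700, 342, 355 and 133 with JPX-0750, and 665, 353 and 456 with DMSO. CHAF1B had 18.4, 26.1 and 19.5 with JPX-0700, 13.7, 36.4 and 49.98 with JPX-0750, and 53.9, 62.9 and 33.4 with DMSO. The JPX-0700 libraries of CHAF1B, with 4 to 7 reads, were all below DMSO, and the other comparisons of this pair overlapped. SLBP, the binding protein of histone mRNA stem-loops, had log2 fold changes of −0.44 ± 0.56 with JPX-0700 and −0.23 ± 0.56 with JPX-0750.

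The 4 S-phase regulators did not pass the test either, and their medians were −1.02 with JPX-0700 and −0.67 with JPX-0750. E2F1, an activator of replication genes, had 59.9, 48.4 and 16.7 normalised counts with JPX-0700, 68.5, 86.4 and 135 with JPX-0750, and 107, 120 and 88.3 with DMSO. The JPX-0700 libraries were below all others, and JPX-0750 overlapped DMSO. Its log2 fold changes were −1.48 ± 0.80 (adjusted p = 0.319) with JPX-0700 and −0.16 ± 0.80 (adjusted p = 0.948) with JPX-0750. E2F2, a second activator, had −0.58 ± 1.41 with JPX-0700 and −2.23 ± 1.41 with JPX-0750, where replicate 2 had no read, and E2F8, a repressor that closes the wave, had −1.46 ± 1.22 and −0.53 ± 1.22 for the same compounds. DTL, which directs CDT1 to destruction once replication starts, had 166, 96.9 and 517 normalised counts with JPX-0700, 106, 72.8 and 223 with JPX-0750, and 205, 189 and 238 with DMSO. The groups overlapped, and replicate 3 was the high library of both compounds.

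**Figure D4:**
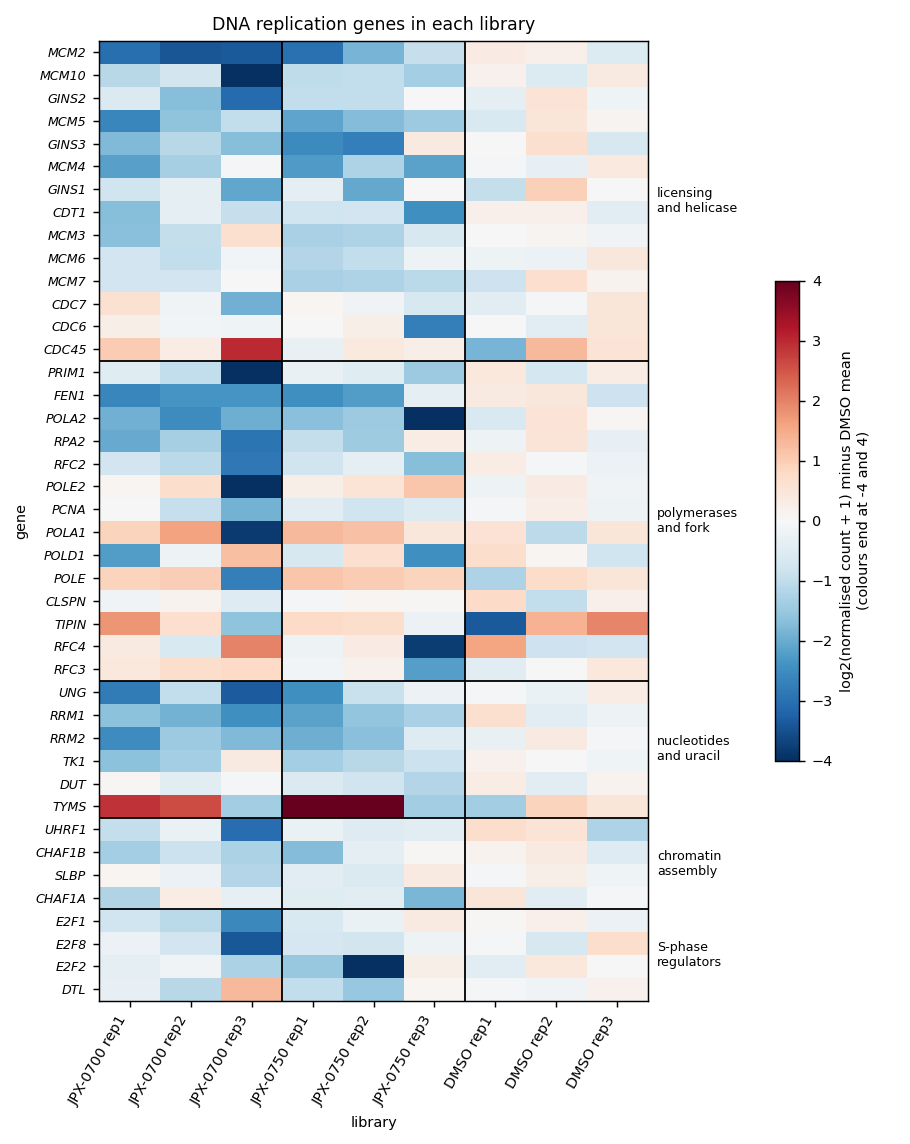
Each of the 42 genes (rows, by role) in each of the 9 libraries (columns, JPX-0700 left, JPX-0750 centre and DMSO right). Colour gives log2(normalised count + 1) minus the gene's mean over the DMSO libraries, blue for lower and red for higher, and ends at −4 and 4. MCM2, MCM5, RRM1 and RRM2 are blue in all 6 treated libraries, and replicate 3 of JPX-0700 holds many of the darkest cells, with 3 of the 42 genes at 0.

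Of the 53 other replication pathway genes in the table, such as the origin recognition complex, the remaining polymerase and RPA subunits and the S-phase cyclins, RPA1 fell and CCNE2 rose with JPX-0700, and 0 passed the test with JPX-0750. Among all genes tested by limma, 0.496% fell and 5.28% rose with JPX-0700. All 53 were tested, and 36 had a log2 fold change below 0 with JPX-0700 (median −0.48, against 46.5% of all genes tested and a median of 0.14). With JPX-0750 35 were below 0 (median −0.51, against 42.5% and 0.26). An unadjusted p under 0.05 was reached by 8 of the 53 with JPX-0700, where 19.6% of all genes tested did, and by 7 with JPX-0750, where 14.2% did. RPA1 is the large subunit of the complex that holds RPA2. It had 13.8, 52.2 and 16.7 normalised counts with JPX-0700, from 3, 14 and 6 reads, 30.8, 68.2 and 138 with JPX-0750, and 245, 505 and 205 with DMSO. All treated libraries were below DMSO, and the log2 fold changes were −3.61 ± 0.84 (adjusted p = 0.0140) with JPX-0700 and −2.13 ± 0.84 (adjusted p = 0.225) with JPX-0750. Its JPX-0700 call was lost without replicate 1 (adjusted p = 0.0601) or 2 (0.145) of DMSO, within 0.00218 to 0.145 over 20 alternative settings. CCNE2, a cyclin of the G1 to S transition, had 286, 321 and 1064 normalised counts with JPX-0700, 342, 241 and 81.6 with JPX-0750, and 35.0, 35.7 and 143 with DMSO. The JPX-0700 libraries were all above DMSO, and replicate 3 of JPX-0750 overlapped it. Its log2 fold change with JPX-0700 was 3.01 ± 0.75 (adjusted p = 0.0216). The call was lost without replicate 3 of JPX-0700, replicate 1 of DMSO or replicate 2 of DMSO. Total-sum scaling (log2 fold change 2.28, adjusted p = 0.0790) and fitting only these 2 groups (0.0734) lost it too. The adjusted p ran from 0.00941 to 0.114 over the alternatives. The fold change itself was 2.402 without replicate 3 of JPX-0700 and 3.67 without replicate 3 of DMSO. With JPX-0750 it was 1.73 (adjusted p = 0.289).

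The compounds were compared directly at 24 h, without a stated dose, in 1 pair. By limma 0 of the 42 genes rose or fell in JPX-0750 over JPX-0700, as for 0.0% of all genes tested in each direction, and voom also called 0. An unadjusted p under 0.05 was reached by 1 of the 42, RFC3, against 3.21% of all genes tested. The median difference of the 42 was 0.23 against 0.10 for all genes tested, with 18 genes below 0, against 46.3% of all genes tested, and 24 above. It turned to −0.04 without replicate 3 of JPX-0700, and was 0.40 without replicate 1 and 0.35 without replicate 2 of that compound. All JPX-0750 libraries lay under all JPX-0700 libraries for MCM7, RFC3 and DUT (3.63% of all genes tested), and above for MCM2 and E2F1 (4.72%).

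RFC3 had 229, 282 and 53.3 normalised counts with JPX-0750 and 336, 406 and 431 with JPX-0700. Its difference was −1.36 ± 0.62 (unadjusted p = 0.0427, adjusted p = 0.848), and replicate 3 of JPX-0750 was far below its partners. MCM2 differed by 1.36 ± 0.65, with a 95% interval of −0.01 to 2.72 and an adjusted p of 0.848, from the per-library values given above. RRM1 differed by 0.33 ± 0.49 and MCM5 by −0.04 ± 0.60. These misses do not show that the compounds act alike: the 95% intervals of the 42 differences reached between 0.892 and 3.81 log2 units to either side, with a median of 1.65, and in 13 genes the interval ran past both −1 and 1.

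**Figure D5:**
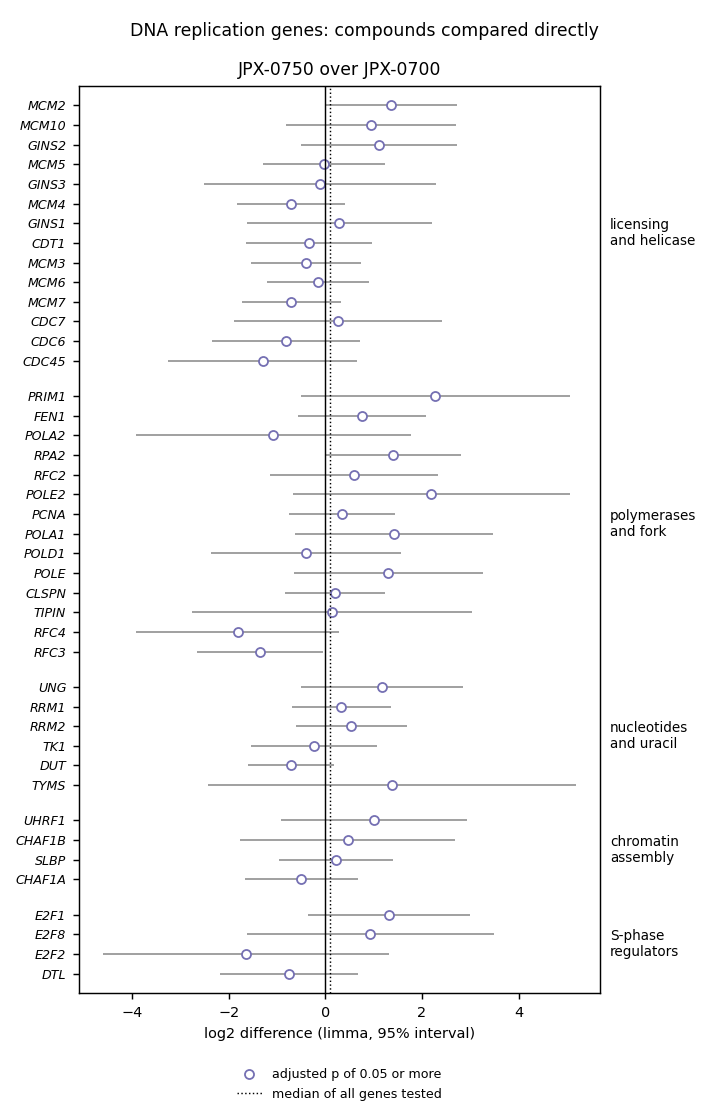
Log2 difference of JPX-0750 over JPX-0700 for each of the 42 genes on the log2(normalised count + 1) scale, with 95% intervals from limma (n = 3 libraries per group) and the median of all genes tested as a dotted line. Genes run down the page by role. All points are open (adjusted p of 0.05 or more), and only the interval of RFC3 leaves out 0.

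The presence of an E2F word in the promoter was set beside the fold changes as a description. The 21 genes with a word had a median log2 fold change of −0.66 with JPX-0700 and −0.78 with JPX-0750, and the 17 genes without one had −0.88 and −0.91 for the same compounds. The 4 genes without a matched promoter, MCM4, MCM5, E2F8 and RPA2, could not be placed and had the lowest medians, −1.60 and −1.23. Of the 4 genes that fell with JPX-0700, MCM2 carried the word and RRM1, RRM2 and FEN1 did not. MCM6, with the densest words, had log2 fold changes of −0.62 ± 0.50 with JPX-0700 and −0.78 ± 0.50 with JPX-0750, neither past the test.

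For 6 of the 42 genes the last 300 bases of the annotated span overlap an exon of another gene in the GENCODE annotation. Beside TYMS and PRIM1 they are MCM2, GINS2 with GSE1, RFC4 with EIF4A2 and CHAF1A with UBXN6, all with the partner on the opposite strand. The partner of MCM2, AC023593.1, has no row in the table. Where the 3′ reads fall within each gene was not measured, so other members may also share reads near their 3′ ends. Elsewhere, exons of MCM2 overlap TPRA1 and those of RRM1 overlap RRM1-AS1 on the opposite strand, and those of RRM2 overlap AC007240.1 on the same one. RRM2 also has 3 annotated pseudogenes, of which 0 have a row in the table, and no source used here says how reads that map to several places were counted.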

How the data were processed

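The authors deposited 1 table of normalised counts for 26929 genes in 9 libraries, a unit recorded here as other than CPM or TPM. Tools listed in the submitters' processing notes, with build GRCh38, are STAR 2.4.2a, featureCounts 2.0.3, SAMtools 1.4, FastQC 0.11.9 and DESeq2, whose version is not given, and no source used here states the annotation or the counted strand. At a tolerance of 1e-06, every library's non-zero values (100%) were whole multiples of its smallest one. Dividing by that smallest value recovered reads, and 1 read was worth 0.383 to 4.61 normalised counts, least precise in the treated libraries. The protocols name no molecular identifiers, so floors of 3 reads cover counting error only.

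The test was limma 3.58.1 (R 4.3.3) on log2(normalised count + 1) over all 9 libraries, with group means, trended moderated variances and 6 residual degrees of freedom. It covered 12301 genes with a mean of at least 5, used two-sided p-values with Benjamini-Hochberg adjustment over all genes tested, and had a threshold of 0.05. The added 1 makes folds of weakly read genes smaller. The test was also run on simulated counts that had the same spread for every gene and no difference in small structured RNA between libraries. That run does not show how the test behaves with the library differences seen here. Because the table was recorded under a unit other than counts, count models were not used for the main test, although reads could be recovered. Voom on recovered reads was an alternative. Others were pseudocounts of 0.5 and 5, no filter, a mean of at least 50, total-sum, TMM and quantile scaling, 2 groups only, a replicate block and leaving out each library.

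Genes were named by rule: those past the test, the most deeply read gene of each of the 5 roles, and up to 4 per role by size of log2 fold change over SE against DMSO. Further members, and values of each library for genes below the first pair of criteria, were added after the values were seen, so that all 42 are accounted for. The members, lists and roles were chosen with earlier results of these data known. Replicate numbers met a rule for pairing JPX-0750 with JPX-0700: every same-numbered correlation of deviations across genes exceeded 0.1 (0.129, 0.171 and 0.190). This is weak: differently numbered libraries reached 0.153 between the compounds and 0.188 between JPX-0700 and DMSO. The numbers did not pair the compounds with DMSO. The main test and the permutation tests were unpaired in every comparison, and only the replicate-block settings used the numbers. Figures used Python 3.11.15 and matplotlib 3.10.9.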

Additional observations from a re-analysis of the deposited data

How the results depend on the processing

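Counts, medians and the named genes were recomputed under 20 settings, or 21 for the compounds' difference. Of 996 values of single genes under these settings, 911 kept their sign and side of the threshold, 50 moved past it, 21 were lost and 14 changed sign. Most of the 996 belong to genes that were not called, so the 911 says little about the calls. The 21 losses all fell on calls with JPX-0700: RRM2 held in 11 of 20 settings, CCNE2 in 15, FEN1 in 17, RRM1 and RPA1 in 18 and MCM2 in 20.

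Replication genes past the threshold with JPX-0700 (4 as reported) numbered 8 with total-sum scaling, 7 with quantile normalisation, 2 with only the 2 groups fitted, 14 without the 3 libraries with the fewest genes and 1 to 6 with each library left out (2 without JPX-0700 replicate 1, 1 without DMSO replicate 1, 2 without DMSO replicate 2). With JPX-0750 (0 as reported) they numbered 1 with a pseudocount of 5, 2 with a mean of at least 50, 3 with total-sum scaling, 2 with TMM, 3 with quantile normalisation, 2 with voom, 3 with only 2 groups, 13 without the 3 libraries and 0 to 4 with each library left out, 4 of them without JPX-0700 replicate 3. Other pathway genes with JPX-0700 (2 as reported) numbered 1 with total-sum scaling, 4 with quantile normalisation, 1 with only 2 groups, 11 without the 3 libraries and 0 to 3 with each library left out. With JPX-0750 (0 as reported) they numbered 1 each with a mean of at least 50, total-sum, TMM, quantile and 2 groups, 11 without the 3 libraries and 0 to 2 with each library left out. The cause was not tested.

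The replication genes' median with JPX-0700 (−0.97) was −1.70 with total-sum scaling, and ran from −1.20 to −0.74 with each library left out. With JPX-0750 (−0.81) it was −1.34 with total-sum, −1.07 with TMM, −1.13 with quantile and −1.18 with voom, and −0.96 to −0.74 with each library left out. The difference of the compounds (0.23) was 0.41 with total-sum and with voom, 0.051 with quantile, 0.021 without the 3 libraries and −0.039 to 0.40 with each library left out. A replicate block over all groups gave 1 call with JPX-0750 (MCM4, adjusted p = 0.0477) and took RRM2 with JPX-0700 to 0.0514. The block over the 6 treated libraries changed no call between the compounds.

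Signs that turned, in none of which the gene passed the test, included RRM1 between the compounds (−0.092 without the 3 libraries) and CLSPN with JPX-0700 (0.40 without the 3 libraries). CLSPN with JPX-0750 turned to −0.51 with total-sum, −0.23 with TMM, −0.16 with quantile and −0.16 with voom. With each library left out, CLSPN ran from −0.66 to 0.22 with JPX-0700 and from −0.46 to 0.42 with JPX-0750, DUT with JPX-0700 from −0.37 to 0.012, DTL with JPX-0700 from −0.72 to 0.48, and E2F1 with JPX-0750 from −0.43 to 0.052.

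The planned edgeR and DESeq2 fits were not run, because the deposited unit is not counts. Few reads limit the precision of single genes: 3 to 19 of the 42 had under 10 reads in a treated library, the 19 in JPX-0700 replicate 3, which detected few genes but was not the shallowest library.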
